A study of Mus musculus with 46 samples.

Results

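The comparison described here set 6 male C57BL/6J mice whose saline-filled osmotic minipump had been taken out surgically 24 h before death against 6 male C57BL/6J mice that died with the saline pump still under the skin. The 12 mice were chosen by their labels, strain, drug and phase, from 46 mice in all. The pump-removed mice carry the label withdrawal and the pump-in-place mice the label chronic, but no mouse of either group received nicotine. All 12 carried a pump for 14 days, so the groups share the implantation, the saline and the housing (4 to a cage), and differ by the second operation and the day after it. Neither group holds a mouse without surgery, and no source used here gives ages, cages or array dates. The remaining mice were 11 C57BL/6J mice on nicotine (24 mg/kg/day; 6 with the pump removed and 5 with it in place), 12 DBA/2J mice on saline (6 and 6) and 11 DBA/2J mice on nicotine (5 and 6), all male. They entered the fit as an estimate of the spread and served as 3 further pairs of removed and in-place groups that share no mouse with these 12.

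The tissue was the nucleus accumbens, the ventral part of the striatum, which links reward signals carried by dopamine to movement and motivation. Most of its neurons are spiny projection neurons that release GABA, set among interneurons, glia and blood vessels. An operation under anaesthesia is known to release adrenal glucocorticoids, which act on brain astrocytes, oligodendrocytes and endothelium through the glucocorticoid receptor. It also costs some blood and calls up circulating inflammatory signals. In a study of drug withdrawal the saline arm measures these non-drug components, and that is the question of the comparison.

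RNA was measured on 1 Affymetrix MTA 1.0 array per mouse, and the values are log2 signals per transcript cluster as the authors deposited them. The array medians of all 46 mice lay between 6.52 and 6.63. Over the genes tested, each of the 12 arrays correlated with the rest of its group at 0.993 or above, and the lowest value belonged to pump-in-place mouse 3. All 7 of the striatal spiny neuron markers with array values passed the filter (Drd2, Adora2a, Ppp1r1b, Rgs9, Pde10a, Adcy5 and Gnal). Neither of the 2 choroid plexus markers with array values passed. Genes of chromosomes 1 to 6 are nearly all without array values here (13 features) and were not analysed, and 9599 genes were tested.

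No gene passed the test for a difference after pump removal. Of 9599 genes, 0 reached an adjusted p under 0.05 (0%) in limma, and the lowest adjusted p was 0.998. At an unadjusted p under 0.05 there were 359 genes, which is 3.74% of those tested. That is below the share of 0.05 expected on average where no gene differs. The 359 genes were divided unevenly, with 93 higher in pump-removed mice (0.969%) and 266 lower (2.77%). The split depended on how arrays were scaled: 141 were higher and 236 lower once each array was centred on its median. Single mice mattered too, since the lower genes numbered 160 without pump-removed mouse 4 and the higher genes 213 without pump-in-place mouse 4. Over all genes the median difference was -0.01 on the log2 scale, with 5157 lower and 4442 higher.

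The precision of the comparison was set by 6 mice a group and by a spread pooled over all groups of the series. The median SE of a gene's difference was 0.07 on the log2 scale. For 97.2% of the genes the 95% confidence interval of the difference lay within 0.5 log2 units of 0, which is 1.41-fold in either direction. The pump-in-place group had the largest median gene SD of all groups, 0.136, beside 0.108 in pump-removed mice. The pooled SEs and intervals can therefore be too narrow for this pair, mainly for genes that varied widely among in-place mice. The point estimate passed 0.5 in 12 genes, 2 higher and 10 lower. Of those 12, 3 were globin genes, and the 2 largest estimates, Abi3bp at 1.01 ± 0.46 and Gm11096 at -1.10 ± 1.01 (SE), came with wide errors. Every gene named below had an adjusted limma p of 0.998 or above, so its difference is given with its SE as a value that did not pass the test. Counts at an unadjusted p under 0.05 describe the ranking, and 3 log2 values in a row are the lowest, the median and the highest of 6 mice. Over all genes 53.7% had lower means, and 2.77% were lower and 0.969% higher at that unadjusted level. These shares are the background for the counts of each list below.

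**Figure D1:**
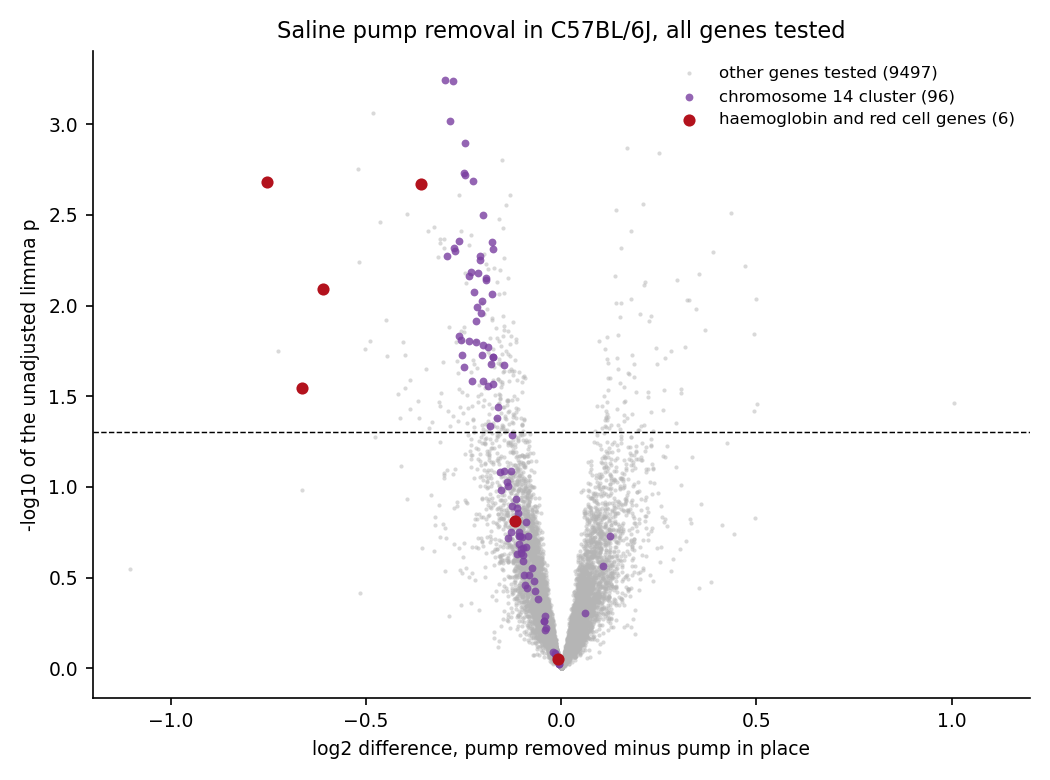
Each point is 1 of 9599 genes, with the log2 difference (pump removed minus pump in place) across and the -log10 of the unadjusted limma p upward and a dashed line at the unadjusted threshold of 0.05. No gene passed after adjustment, and the haemoglobin genes (6 red points) and the chromosome 14 cluster (96 purple points) lie mostly to the left.

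Red cell genes that passed the filter, which removes genes with low values, lay lower in pump-removed mice. Of 19 listed, 10 had array values and 6 of these passed. All 6 had lower means in pump-removed mice, 4 of them at an unadjusted p under 0.05, where 2.77% of all genes were lower. The list's median difference was -0.48, beside -0.01 over all genes. With no filter the list's median was -0.07, so the value belongs to these 6 members only. Erythrocyte precursors make haemoglobin from 2 alpha and 2 beta globin chains around haem, and circulating red cells still carry globin RNA. In brain tissue they come with the blood left in the vessels, and no source used here says whether the mice were perfused. In bulk tissue, fewer cells of a type and less RNA per cell cannot be told apart.

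The 4 red cell genes at p under 0.05 are shown with the 250 bases before their annotated start, from RefSeq on GRCm38.p6, because GATA1 and KLF1, the main erythroid regulators, are known for binding GATA and CACCC elements. Capitals mark every GATAA and every CACCC on either strand. In Alas2, copies of the reverse complement of CACCC lie end to end.
Hbb-bt (chr7:103813924-103814173, minus strand): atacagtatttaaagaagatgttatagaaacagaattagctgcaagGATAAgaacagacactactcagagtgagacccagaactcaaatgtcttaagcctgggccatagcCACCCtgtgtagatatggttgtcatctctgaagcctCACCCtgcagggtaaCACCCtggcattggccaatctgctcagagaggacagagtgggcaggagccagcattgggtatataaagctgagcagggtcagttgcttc
Hbb-bs (chr7:103827929-103828178, minus strand): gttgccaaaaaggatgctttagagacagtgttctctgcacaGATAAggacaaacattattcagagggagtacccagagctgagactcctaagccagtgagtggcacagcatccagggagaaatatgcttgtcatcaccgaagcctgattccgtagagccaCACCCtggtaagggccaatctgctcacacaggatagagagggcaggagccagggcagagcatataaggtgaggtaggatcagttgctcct
Hba-a1 (chr11:32283422-32283671, plus strand): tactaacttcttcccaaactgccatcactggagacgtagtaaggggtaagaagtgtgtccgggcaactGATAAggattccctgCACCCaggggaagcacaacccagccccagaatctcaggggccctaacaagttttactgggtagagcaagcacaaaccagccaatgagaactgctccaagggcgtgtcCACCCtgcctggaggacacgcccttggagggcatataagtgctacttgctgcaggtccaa
Alas2 (chrX:150547167-150547416, plus strand): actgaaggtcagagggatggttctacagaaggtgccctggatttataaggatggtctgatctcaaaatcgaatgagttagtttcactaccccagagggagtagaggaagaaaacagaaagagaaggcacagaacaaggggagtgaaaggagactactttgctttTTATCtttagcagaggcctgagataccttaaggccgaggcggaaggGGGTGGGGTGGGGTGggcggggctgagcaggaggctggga
All 4 windows held both motifs. Among 32851 mouse promoter windows of the same length, 22.6% held GATAA, 52% held CACCC and 10.1% held both. A match describes the letters and is not a bound site.

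Hbb-bt, the adult beta globin t chain (chr7:103812524-103813996), read 11.36, 12.12 and 12.33 in pump-removed mice, against 12.17, 12.61 and 13.80 in pump-in-place mice. The difference was -0.75 ± 0.23 (SE), or 0.593-fold. In 3 pump-removed mice Hbb-bt lay below the lowest in-place mouse, and the remaining 3 overlapped with that group's lower end. Pump-in-place mouse 2 had the highest value, and without it the difference was -0.55. Hbb-bs, the neighbouring beta globin s chain, read 9.84, 10.24 and 10.51 in pump-removed mice, against 10.25, 10.70 and 11.81 in pump-in-place mice (-0.61 ± 0.22). The 2 beta globin genes are close copies, so their probes may share signal and they do not count as separate evidence.

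Hba-a1, the alpha globin gene, read 13.13, 13.51 and 14.33 in pump-removed mice, against 13.46, 14.36 and 14.92 in pump-in-place mice. Its difference was -0.66 ± 0.29, and the ranges overlapped widely. Alas2, the erythroid enzyme of the first step of haem synthesis, read 6.86, 7.002 and 7.25 in pump-removed mice, against 7.08, 7.32 and 7.91 in pump-in-place mice. For Alas2, 5 of 6 pump-removed mice were below every in-place mouse (-0.36 ± 0.11). Ank1, a membrane skeleton protein that neurons also make, and Fech, the last enzyme of haem synthesis in every tissue, differed by -0.12 ± 0.08 and -0.01 ± 0.06.

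The mean level of the 6 genes, relative to the in-place mean, was -0.64, -0.45 and -0.14 in pump-removed mice, against -0.38, -0.05 and 0.56 in pump-in-place mice. In 4 pump-removed mice it was below the lowest in-place mouse, and without pump-in-place mouse 2 the list's median difference was -0.33. The list medians in the other pairs, removed minus in place, were 0.03 in C57BL/6J nicotine mice, 0.13 in DBA/2J saline mice and -0.02 in DBA/2J nicotine mice. Markers of other blood cells gave little to compare: of 36 leukocyte genes 19 had array values, and 3 of these passed the filter. Of the 3, 2 were higher and 1 lower. Of 26 vessel markers 17 were lower, with a median of -0.04. How far blood content contributed was not tested.

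A block of related predicted genes at the start of chromosome 14 supplied 47 of the 266 genes lower at an unadjusted p under 0.05. The block was picked out after its values were seen, so its counts are a description and carry no test. It holds 96 tested genes between positions 3030002 and 7595592, all but 7 named by Gm number, and the authors' deposited table calls Gm3002 an alpha-takusan pseudogene. Takusan proteins are a mouse family described as partners of postsynaptic scaffold proteins. Of the 96 genes, 93 were lower in pump-removed mice, and the median difference was -0.15.

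Gm3667 (chr14:6868502-6889962) read 8.95, 9.25 and 9.48 in pump-removed mice, against 9.36, 9.50 and 9.77 in pump-in-place mice (-0.30 ± 0.08, the smallest p of the comparison). Gm3005 read 9.69, 9.89 and 9.99 in pump-removed mice, against 9.96, 10.13 and 10.39 in pump-in-place mice (-0.28 ± 0.07). Both genes overlapped between the groups by the top of the pump-removed range. Across the 96 genes the mean level relative to the in-place mean was -0.29, -0.14 and -0.01 in pump-removed mice, against -0.17, -0.003 and 0.19 in pump-in-place mice, and 3 pump-removed mice lay below the in-place range.

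Some of the 96 genes are copies of each other, so they are not 96 separate measurements. Among them, 6 had the same value as another member on all 46 arrays. Of the 44 with exactly 1 RefSeq promoter window, compared base by base without gaps, 26 were at least 90% identical to another member over 250 bases. For the other 18 the closest member was 29.2% to 50.8% identical. Windows were matched by gene name and can lie away from the array's position. For Gm3642 the window is at 6840374-6840623 and the array's position is 6087295-6108665. How far the 96 genes share probes was not tested. The cluster's medians in the other pairs were 0.01 in C57BL/6J nicotine mice, -0.02 in DBA/2J saline mice and 0.02 in DBA/2J nicotine mice. Leaving out 1 of the 12 mice at a time kept the median between -0.19 and -0.12.

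**Figure D2:**
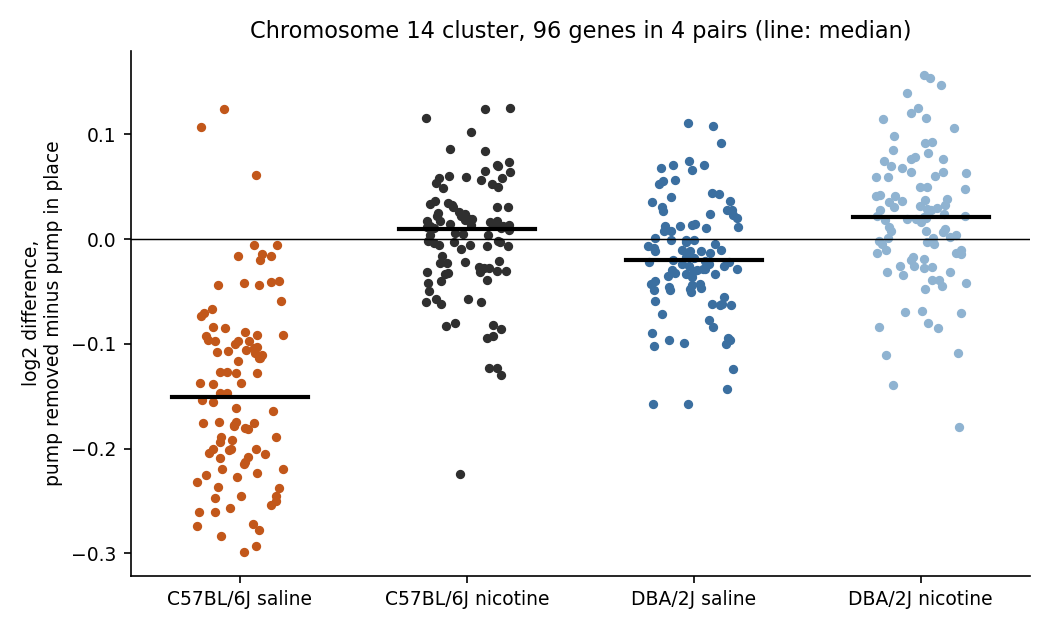
Log2 difference (pump removed minus pump in place) of the 96 chromosome 14 cluster genes in each of the 4 pairs of groups, 1 point per gene and a line at the median. The median is -0.15 in C57BL/6J saline mice and between -0.02 and 0.02 in the other pairs.

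Genes of mature oligodendrocytes, the cells that wrap axons in myelin, lay higher in pump-removed mice. Of 29 tested, 25 had higher means, 4 of them at an unadjusted p under 0.05 and none lower at that level. Over all genes 4442 of 9599 had higher means, and 0.969% were higher at that level. The list median was 0.10. It was 0.20 without pump-in-place mouse 4 and between 0.07 and 0.15 without any other single mouse, and 0.002 with the mean of the oligodendrocyte markers as a covariate, which removes most of the list's own signal. Opalin, a transmembrane protein of myelin paranodes, read 10.14, 10.34 and 10.65 in pump-removed mice, against 9.53, 9.98 and 10.41 in pump-in-place mice (0.44 ± 0.14). Mog, the myelin oligodendrocyte glycoprotein, read 10.08, 10.44 and 10.64 in pump-removed mice, against 9.50, 9.97 and 10.52 in pump-in-place mice (0.39 ± 0.13). The groups overlapped for both, with 2 pump-removed mice above the in-place range in each case.

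Nipal4, a magnesium transporter of the NIPA family, read 7.21, 7.44 and 7.65 in pump-removed mice, against 7.01, 7.12 and 7.48 in pump-in-place mice (0.25 ± 0.07). Cnp, a myelin phosphodiesterase, differed by 0.23 ± 0.09, with all 6 pump-removed mice inside the in-place range. Other myelin genes had smaller differences: Mbp, the basic protein of myelin, differed by 0.15 ± 0.09 and Mobp, a further basic protein of oligodendrocytes, by 0.07 ± 0.15. The mean level of the list was -0.03, 0.17 and 0.24 in pump-removed mice, against -0.20, -0.10 and 0.38 in pump-in-place mice, so the in-place group held both the lowest and the highest mice.

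Oligodendrocyte precursors, the dividing cells that give rise to them, had 14 of 21 genes higher and a median of 0.03. The cholesterol synthesis genes, which myelinating cells use heavily, had 20 of 23 higher with a median of 0.04, and 0 at an unadjusted p under 0.05. The myelin list's medians in the other pairs were 0.02 in C57BL/6J nicotine mice, -0.01 in DBA/2J saline mice and 0.18 in DBA/2J nicotine mice. White matter runs beside the nucleus accumbens, and the share of it in each piece was not tested.

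Markers of the regions around the nucleus accumbens showed no difference that passed the test, and their counts leaned in opposite directions. Of 22 genes marking olfactory tubercle, septum and ventral pallidum, 19 had lower means in pump-removed mice, 3 at an unadjusted p under 0.05, with a median of -0.13. Over all genes the shares were 53.7% lower and 2.77% lower at that level. The median was -0.06 without pump-in-place mouse 5 and -0.08 without pump-removed mouse 4. Nts, the peptide neurotensin, read 9.80, 10.62 and 11.28 in pump-removed mice, against 10.87, 11.21 and 12.06 in pump-in-place mice (-0.73 ± 0.29). Zic1, a transcription factor of septal and tubercle neurons, read 8.16, 8.88 and 9.23 in pump-removed mice, against 8.91, 9.18 and 9.77 in pump-in-place mice (-0.45 ± 0.18). For each gene 3 pump-removed mice were below the in-place range and 3 inside it. Cartpt, the precursor of the CART peptides of the accumbens shell, is also on this list and differed by -0.45 ± 0.17. The list is therefore not limited to tissue outside the nucleus accumbens.

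Spiny neuron genes had 32 of 41 lower, 3 at an unadjusted p under 0.05 and a median of -0.05, beside 53.7% and 2.77% of all genes. Drd3, the dopamine D3 receptor that is enriched in the ventral striatum, read 8.79, 9.12 and 9.42 in pump-removed mice, against 8.86, 9.73 and 10.23 in pump-in-place mice (-0.49 ± 0.19). Isl1, a transcription factor of spiny neurons of the direct pathway and of cholinergic cells, differed by -0.41 ± 0.20. Broader spiny neuron markers had smaller differences: Drd2, the D2 receptor, differed by -0.13 ± 0.14, Adora2a, the adenosine receptor paired with it, by 0.11 ± 0.15 and Ppp1r1b, the phosphoprotein DARPP-32, by -0.02 ± 0.15. Without pump-in-place mouse 3 the spiny list's median was -0.17, while without pump-in-place mouse 1 it was 0.002, without pump-in-place mouse 6 -0.006 and without pump-removed mouse 3 0.006. The median was -0.02 without pump-in-place mouse 2 and -0.03 without pump-removed mouse 4.

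Cortical excitatory neuron genes were higher in 20 of 33, with 0 at an unadjusted p under 0.05 and a median of 0.05. The median was -0.0004 without pump-in-place mouse 6, 0.01 without pump-in-place mouse 1 or pump-removed mouse 4, and -0.03 with the oligodendrocyte covariate. Slc17a7, the vesicular glutamate transporter of cortical neurons, read 12.63, 13.27 and 13.63 in pump-removed mice, against 11.64, 12.88 and 13.72 in pump-in-place mice (0.44 ± 0.32), and its difference was 0.21 without pump-in-place mouse 6. The in-place group spanned a wider range at both ends. The first principal component of the within-group spread of the 12 mice took 29.3% of it. It set cortical genes such as Nrn1 apart from striatal and tubercle genes such as Drd3 and Nts. Pump-in-place mouse 3 lay farthest along it, at -17.06, and pump-in-place mouse 6 at 11.63 was at the other end of the 12. With the cortical markers' mean level as a covariate, the median was -0.11 for the tubercle list and -0.01 for the spiny list.

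**Figure D3:**
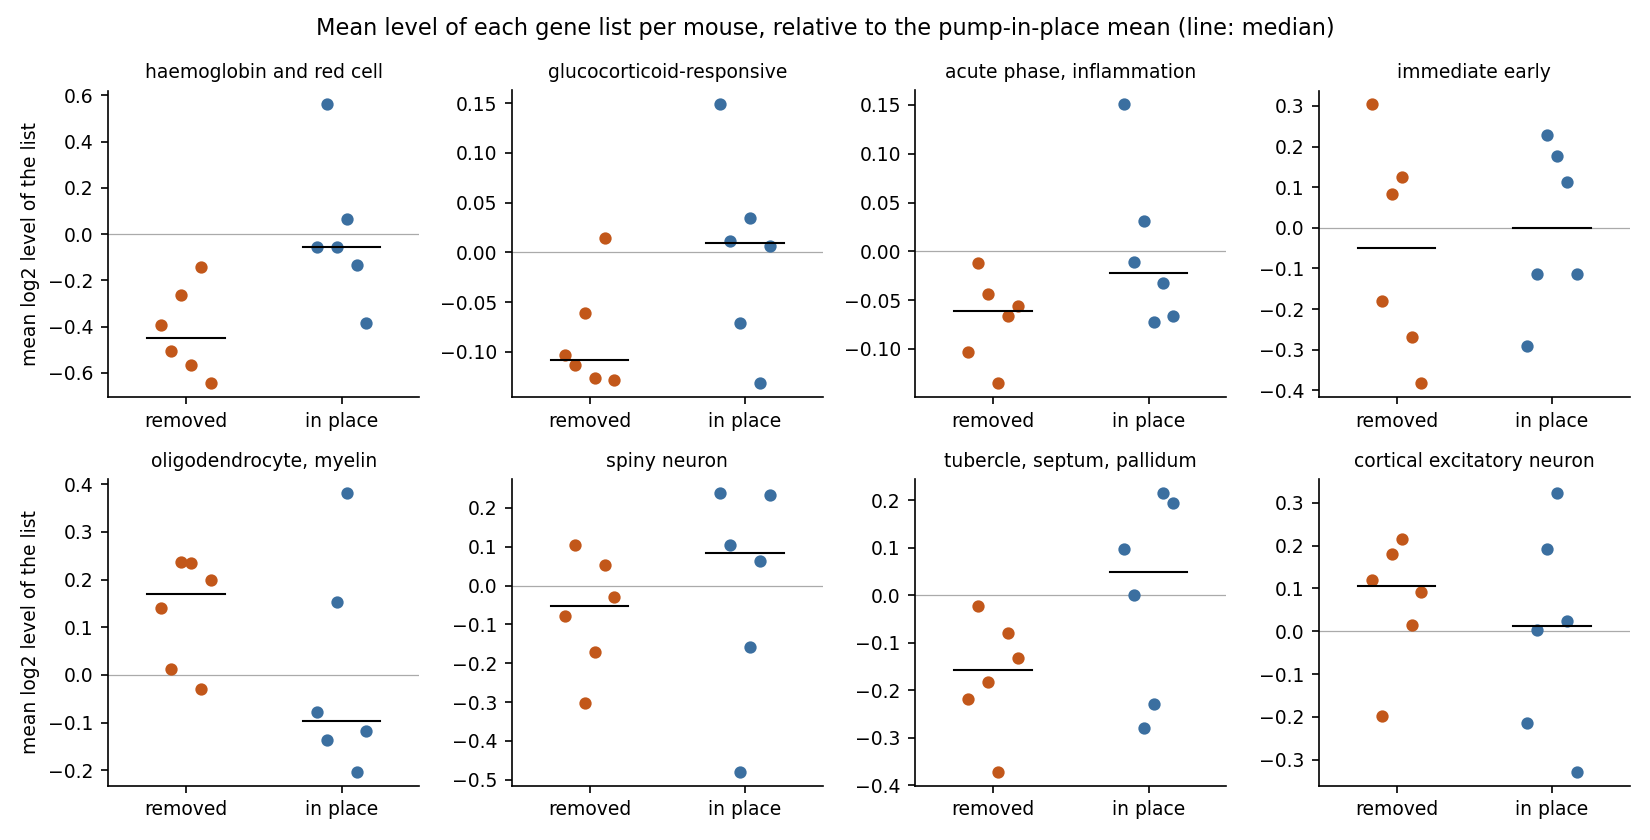
Mean log2 level of 8 gene lists per mouse, relative to the pump-in-place mean of each gene, in pump-removed (left) and pump-in-place (right) mice, with a line at the group median. The red cell list has 4 pump-removed mice below the in-place range, and the in-place group spreads more widely for most neuronal and myelin lists.

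Glucocorticoid-responsive genes did not lie higher a day after the operation. Of 39 tested, 28 had lower means in pump-removed mice, with 6 lower and 1 higher at an unadjusted p under 0.05, and the median was -0.09. Over all genes 53.7% had lower means, with 2.77% lower and 0.969% higher at that level. Cdkn1a, the cell cycle inhibitor p21, read 9.04, 9.21 and 9.42 in pump-removed mice, against 9.25, 9.47 and 9.88 in pump-in-place mice (-0.32 ± 0.11). Fam107a, an actin-binding protein induced by stress, read 11.93, 12.44 and 12.81 in pump-removed mice, against 12.40, 12.68 and 14.08 in pump-in-place mice (-0.52 ± 0.18). Sult1a1, a sulphotransferase, read 7.25, 7.45 and 8.19 in pump-removed mice, against 7.62, 7.74 and 9.52 in pump-in-place mice (-0.50 ± 0.20).

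Pump-in-place mouse 1 held the in-place maximum of Sult1a1 and decided much of the size. Without it the difference was -0.22 for Sult1a1, -0.28 for Fam107a and -0.25 for Cdkn1a, and the list median was -0.06. The list median was also -0.06 without pump-in-place mouse 6 and without pump-removed mouse 6. Tsc22d3, a classic target of the receptor that is also known as Gilz, differed by -0.07 ± 0.06. The level of the list was -0.13, -0.11 and 0.01 in pump-removed mice, against -0.13, 0.01 and 0.15 in pump-in-place mice, and the ranges overlapped in full. Its medians in the other pairs were 0.00 in C57BL/6J nicotine mice, -0.02 in DBA/2J saline mice and 0.10 in DBA/2J nicotine mice.

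Acute phase and inflammation genes had 15 of 19 lower and a median of -0.07, with 1 at an unadjusted p under 0.05. That gene was Osmr, the oncostatin M receptor (-0.24 ± 0.11). Serpina3n, a protease inhibitor of reactive astrocytes, read 7.91, 8.24 and 8.77 in pump-removed mice, against 8.14, 8.44 and 9.70 in pump-in-place mice (-0.30 ± 0.21). Without pump-in-place mouse 1 the difference was -0.08 for Serpina3n and -0.09 for Osmr. Interferon-response genes had 15 of 21 lower, and Ifitm3, an antiviral membrane protein, differed by -0.39 ± 0.17. Neither list had a gene higher in pump-removed mice at an unadjusted p under 0.05.

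Endothelial genes included Ctla2a, a cathepsin inhibitor, which read 7.03, 7.13 and 7.22 in pump-removed mice, against 7.16, 7.37 and 8.46 in pump-in-place mice (-0.39 ± 0.13). In 5 of 6 pump-removed mice Ctla2a was below the in-place range, but pump-in-place mouse 1 stood far above the rest, and without it the difference was -0.20. Ly6a, a surface protein of brain vessels, differed by -0.39 ± 0.18 and by -0.12 without the same mouse. Pecam1, an adhesion protein of endothelium, differed by -0.16 ± 0.06 and by -0.09 without it.

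Microglial genes had 13 of 19 lower and a median of -0.02. Itgb2, the beta chain of leukocyte integrins, read 6.80, 6.85 and 6.93 in pump-removed mice, against 6.90, 6.996 and 7.10 in pump-in-place mice (-0.14 ± 0.04), with 5 mice below the in-place range. Gpr34, a lysophospholipid receptor of microglia, was the member higher at an unadjusted p under 0.05, at 0.15 ± 0.07. The defining microglial receptors Cx3cr1 and Csf1r differed by -0.02 ± 0.07 and -0.02 ± 0.06. Astrocyte genes had 17 of 27 lower and a median of -0.02, led by Gjb6, the gap junction protein connexin 30 (-0.31 ± 0.14).

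Immediate early genes, which neurons transcribe within minutes of activity, had 21 of 33 lower and 0 at an unadjusted p under 0.05, with a median of -0.05. The median was 0.01 without pump-removed mouse 6 and 0.001 without pump-removed mouse 5, so its sign rested on single mice. Npas4, an activity-dependent transcription factor, read 7.80, 9.01 and 10.56 in pump-removed mice, against 7.92, 9.99 and 10.78 in pump-in-place mice (-0.66 ± 0.40). Fosb read 6.98, 7.36 and 7.82 in pump-removed mice, against 7.31, 7.56 and 7.86 in pump-in-place mice (-0.23 ± 0.13), and Egr1 differed by -0.26 ± 0.21. Without pump-removed mouse 6 the differences were -0.41 for Npas4, -0.15 for Fosb and -0.10 for Egr1, while Npas4 stood at -1.03 without pump-in-place mouse 2. Transcripts known to respond to sleep loss or feeding had 17 of 22 lower and a median of -0.08, and Rasd1, a small GTPase induced by steroids, differed by -0.35 ± 0.15 and by -0.22 without pump-in-place mouse 1. Hspa1b, an inducible heat shock protein, differed by 0.26 ± 0.12 and by 0.17 without pump-removed mouse 1 or 4.

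Clock genes had 11 of 18 lower (median -0.01), with Cry1 at 0.18 ± 0.09. Heat shock genes had 18 of 28 lower, genes of the unfolded protein response 16 of 26 lower and hypoxia genes 15 of 26 lower, with medians of -0.02, -0.03 and -0.01. Epas1, the hypoxia-inducible factor of vessels, differed by -0.18 ± 0.08. Nuclear genes of oxidative phosphorylation had 29 of 52 higher and proteasome subunits 19 of 29 higher, both with a median of 0.01. Among the antioxidant genes Gpx4, which removes lipid peroxides, differed by 0.17 ± 0.08, with pump-in-place mouse 3 lowest, and by 0.09 without that mouse.

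The remaining lists were small or mixed. Meningeal and fibroblast markers had 11 of 16 lower and a median of -0.10, which ranged from -0.17 without pump-in-place mouse 2 to -0.02 without pump-in-place mouse 5. Choroid plexus and ependyma markers had 5 of 7 higher and a median of 0.08 (0.02 without pump-in-place mouse 5), although Clic6, a chloride channel protein of the choroid plexus, differed by -0.37 ± 0.17. Histone genes had 16 of 27 lower (median -0.02) and interneuron markers 10 of 15 lower (median -0.04). Proliferation genes had 9 of 12 higher (median 0.04). Mitochondrially encoded genes had 5 of 7 higher (median 0.01) and ribosomal protein genes 4 of 5 higher (median 0.07), and the median of the ribosomal list was -0.01 without pump-in-place mouse 3. In 21 of 33 lists the median lay within 0.05 of 0. All 21 changed sign or moved by over 1.5 times when 1 mouse was left out, 10 of them in sign, so no direction is read from them.

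Among the genes of transmitter systems few had small p-values. Nicotinic, muscarinic and other cholinergic genes had 6 of 12 lower and a median of 0.00, and the smallest p was that of Chat, the enzyme that makes acetylcholine (-0.19 ± 0.11, and -0.12 without pump-in-place mouse 1). Glutamate and GABA receptor genes had 20 of 28 lower and a median of -0.04, with 0 at an unadjusted p under 0.05. The list of dopamine synthesis, transport and breakdown had 8 of 13 lower, 2 at an unadjusted p under 0.05, which were Drd3 and Sult1a1. Drd3 is a receptor and not a gene of these steps, and both genes were also counted in lists above. Neuropeptide genes had 15 of 28 lower, and besides Cartpt and Nts the member at an unadjusted p under 0.05 was Npy5r, a neuropeptide Y receptor (-0.29 ± 0.11).

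Leaving predicted genes aside, Irs2 had the smallest p on the lower side. It encodes the insulin receptor substrate that carries insulin and IGF1 signals into the cell. Irs2 (chr8:10986961-11008458) read 10.99, 11.35 and 11.67 in pump-removed mice, against 11.63, 11.75 and 12.00 in pump-in-place mice. The difference was -0.48 ± 0.13, or 0.715-fold, with 5 of 6 pump-removed mice below the in-place range. Leaving out any 1 of the 12 mice kept it between -0.55 and -0.42. In the other pairs Irs2 differed by -0.22 in C57BL/6J nicotine mice, -0.03 in DBA/2J saline mice and -0.30 in DBA/2J nicotine mice.

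Sf1, a splicing factor that binds the branch point (chr19:6363690-6378038), separated the groups by a margin smaller than the second decimal. It read 10.98, 11.05 and 11.12 in pump-removed mice, against 11.12, 11.18 and 11.32 in pump-in-place mice (-0.15 ± 0.05). Glra3, the alpha 3 subunit of the glycine receptor (chr8:55940460-56208517), read 7.61, 7.72 and 7.90 in pump-removed mice, against 7.93, 8.06 and 8.28 in pump-in-place mice (-0.34 ± 0.11). Groups that did not overlap at all were found for 10 genes (0.104%). Some genes separate in this way by chance when so many are tested, and the count was not set against chance.

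Of the 10, 6 were lower in pump-removed mice. Besides Sf1 and Glra3 these included the lysozymes Lyz1 and Lyz2, which are antibacterial enzymes. Lyz1 read 6.49, 6.63 and 6.78 in pump-removed mice, against 6.82, 6.93 and 7.14 in pump-in-place mice (-0.31 ± 0.10). Lyz2 read 7.01, 7.24 and 7.34 in pump-removed mice, against 7.41, 7.55 and 8.00 in pump-in-place mice (-0.40 ± 0.16). They are neighbours on chromosome 10 and close copies. The remaining ones were Pxk (-0.13 ± 0.05) and Entpd1, the ectonucleotidase CD39 of microglia and vessels (-0.10 ± 0.06). Higher without overlap were Dll1, a Notch ligand (0.09 ± 0.04), Rsph1, a radial spoke protein of motile cilia (0.10 ± 0.06), and the predicted genes Gm9112 (0.19 ± 0.08) and Gm10602 (0.10 ± 0.06).

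Impg1, a matrix proteoglycan best known from the retina, read 6.32, 6.85 and 7.28 in pump-removed mice, against 6.92, 7.30 and 7.89 in pump-in-place mice (-0.52 ± 0.16). Sik3, a kinase of the salt-inducible family known for its part in sleep need in mice, read 12.35, 12.38 and 12.45 in pump-removed mice, against 12.34, 12.59 and 12.63 in pump-in-place mice (-0.16 ± 0.05). For Sik3 the lowest of all 12 was pump-in-place mouse 3. Trpc5, a cation channel, differed by -0.32 ± 0.11, Slc18b1, a vesicular polyamine transporter, by -0.26 ± 0.08, and Dock11, an activator of Cdc42, by -0.31 ± 0.10. Ceacam2, an adhesion molecule, and Lgalsl, a galectin-like protein, differed by -0.26 ± 0.08 and -0.13 ± 0.04.

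On the higher side R3hcc1 had the smallest p. It read 7.42, 7.54 and 7.71 in pump-removed mice, against 7.22, 7.33 and 7.53 in pump-in-place mice (0.17 ± 0.05). Gamt, the enzyme of the last step of creatine synthesis (chr10:80258151-80261012), read 7.14, 7.25 and 7.35 in pump-removed mice, against 6.84, 7.06 and 7.14 in pump-in-place mice (0.21 ± 0.07). For Gamt, 5 of 6 pump-removed mice were above the in-place range. Fhit, a hydrolase of dinucleoside polyphosphates, and Serinc5, a lipid scramblase of membranes, also had 5 of 6 above it, with differences of 0.18 ± 0.06 and 0.21 ± 0.08.

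Celsr1, an adhesion receptor of planar cell polarity, differed by 0.14 ± 0.04 and Ephb3, an ephrin receptor, by 0.15 ± 0.05. Gpx6, a glutathione peroxidase, read 7.26, 7.57 and 8.00 in pump-removed mice, against 6.97, 7.08 and 7.44 in pump-in-place mice (0.47 ± 0.16). Serpinb1a, an inhibitor of neutrophil proteases, differed by 0.50 ± 0.18, but all 6 pump-removed mice lay inside the in-place range. The other genes ranked on this side were Reep4 (0.14 ± 0.05), Pgam2, a muscle-type enzyme of glycolysis (0.30 ± 0.10), Marchf11, a ubiquitin ligase (0.18 ± 0.07), and Psors1c2 (0.33 ± 0.12). None of these 15 genes passed the test.

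**Figure D4:**
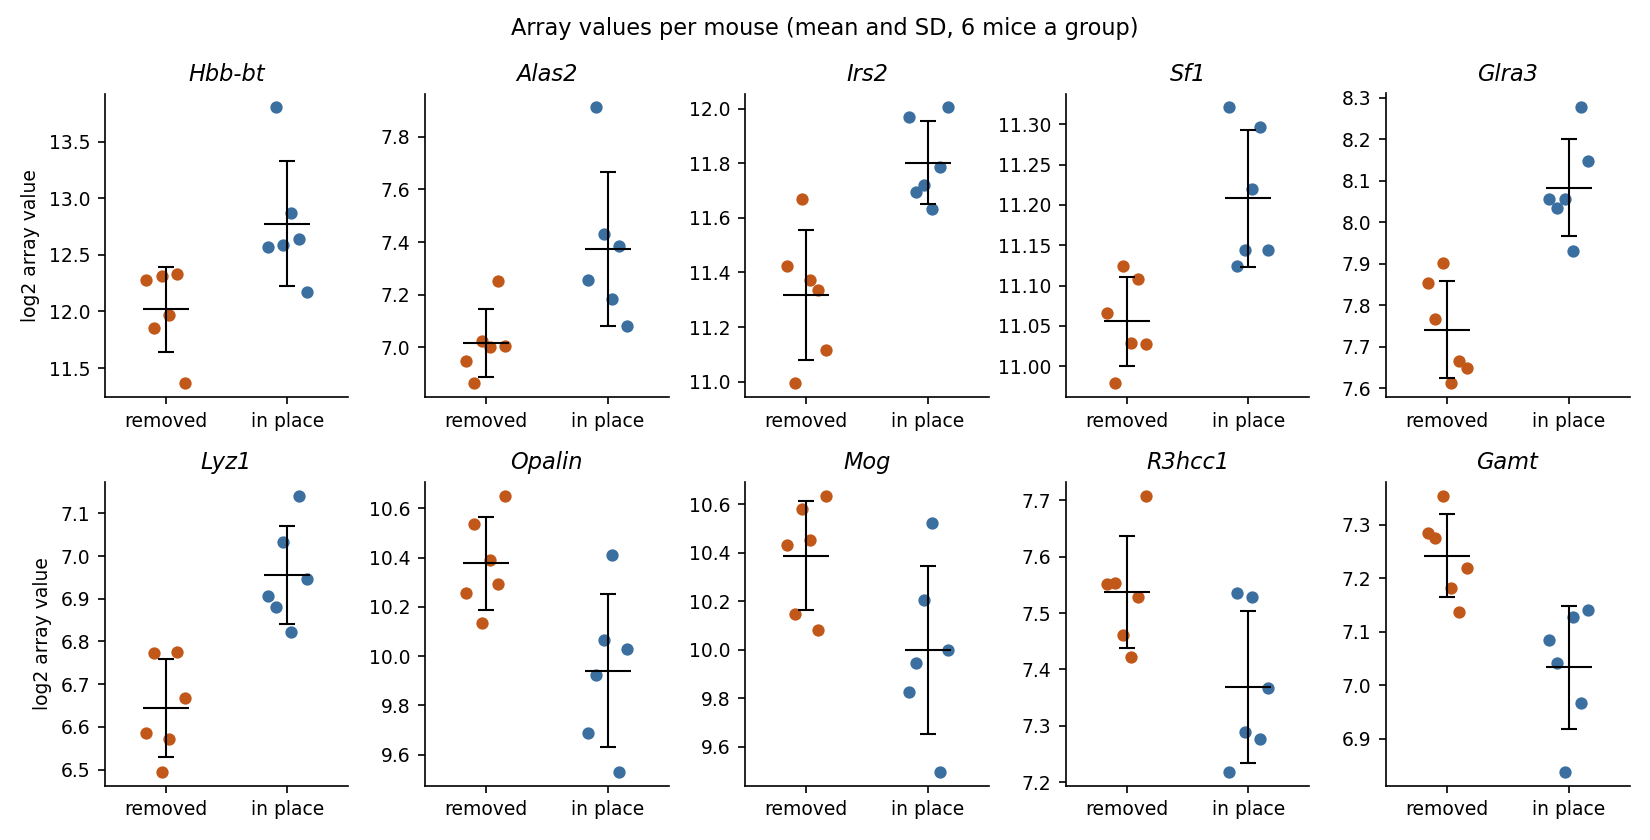
Log2 array values of 10 genes in pump-removed (left, orange) and pump-in-place (right, blue) mice, 6 mice a group, with mean and SD. Glra3, Lyz1 and Sf1 do not overlap between the groups, while Hbb-bt, Alas2, Opalin, Mog and the others do.

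The same operation in other mice gave a further view of these genes. The 3 other pairs, removed minus in place, were C57BL/6J nicotine mice, DBA/2J saline mice and DBA/2J nicotine mice, and in the nicotine pairs the drug also stopped. Of the 15 genes ranked on the higher side, 9 were also higher in DBA/2J saline mice, 8 in C57BL/6J nicotine mice and 11 in DBA/2J nicotine mice, beside 54.3%, 56.7% and 52% of all genes in those pairs. Gamt had a higher mean in each pair, at 0.20 in DBA/2J saline mice, 0.16 in C57BL/6J nicotine mice and 0.13 in DBA/2J nicotine mice. Opalin and Mog were also above 0 in all 3 pairs, and Mog reached 0.33 in DBA/2J nicotine mice.

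Of the 15 genes ranked on the lower side, 12 were lower in C57BL/6J nicotine mice, 8 in DBA/2J saline mice and 7 in DBA/2J nicotine mice, beside 43.3%, 45.6% and 48% of all genes. Of the 12, 6 were at an unadjusted p under 0.05 in C57BL/6J nicotine mice, where 2.59% of all genes were lower at that level: Impg1 at -0.40, Ceacam2 at -0.22, Lgalsl at -0.09, Slc18b1 at -0.23, Glra3 at -0.29 and Dock11 at -0.22. Glra3 stood at 0.18 in DBA/2J saline mice and 0.15 in DBA/2J nicotine mice, above 0 in both. Hbb-bt was at 0.03 in C57BL/6J nicotine mice, 0.27 in DBA/2J saline mice and -0.04 in DBA/2J nicotine mice. Over all 9599 genes the sign matched in 60.1% for C57BL/6J nicotine mice, 51.8% for DBA/2J saline mice and 54% for DBA/2J nicotine mice, with Pearson correlations across genes of 0.29, 0.12 and 0.12. Genes are not independent, so these are descriptions.

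**Figure D5:**
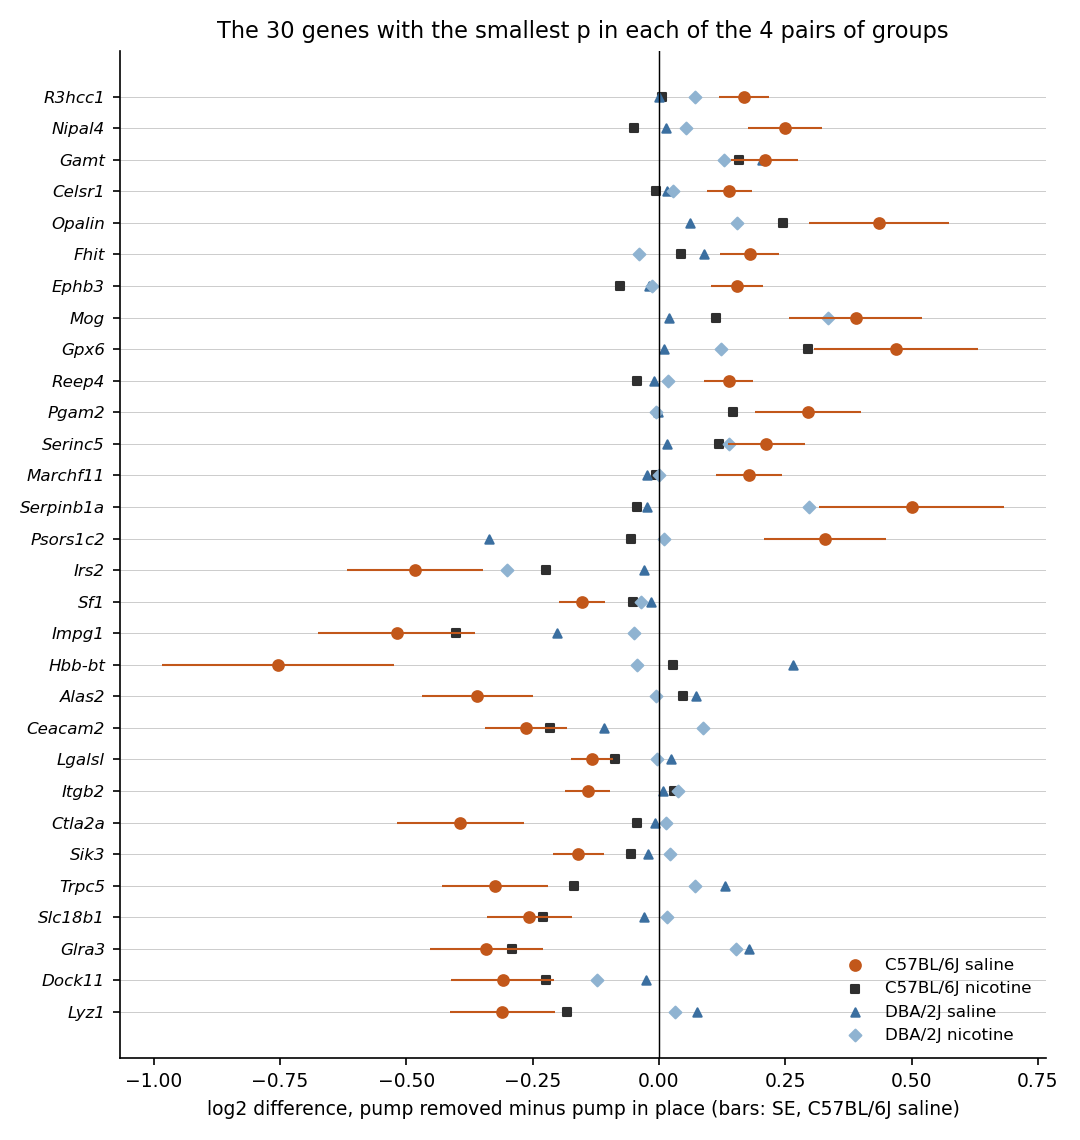
Log2 differences (pump removed minus pump in place) of the 30 genes with the smallest p, predicted genes left out, 15 higher and 15 lower, in C57BL/6J saline mice (orange circles, with SE) and in the 3 other pairs of groups. Gamt and Opalin are above 0 in every pair, and Impg1, Sf1 and Irs2 are below 0 in every pair.

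The removal difference itself was compared between strains and between drugs. Against the DBA/2J saline pair, 0 of 9599 genes differed at an adjusted p under 0.05 (0%) and 280 at an unadjusted one (2.92%). Against the C57BL/6J nicotine pair, 0 differed (0%) and 240 did at an unadjusted p (2.5%). Among the genes named here, the strain contrast was 0.67 for Psors1c2, -0.52 for Glra3 and -1.02 for Hbb-bt, each with an adjusted limma p of 1.00. These contrasts have wider errors, with a median SE of 0.10, and do not show that the strains or the drug groups respond alike.

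The mice with the pump in place were spread more widely, a difference for which no test was run. The SD of an array's deviations from its group mean over all genes was 0.125 to 0.144 in pump-removed mice, with a median of 0.133, and 0.133 to 0.216 in pump-in-place mice, with a median of 0.157. A larger SD in pump-in-place mice was seen for 66.5% of genes. The in-place group had the largest median gene SD of the 8 groups, 0.136, beside 0.108 in pump-removed mice and 0.108 to 0.118 in the other 6 groups. Pump-in-place mouse 3 lay farthest out at 0.216, and without it 515 genes were at an unadjusted p under 0.05 and still 0 passed adjustment.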

How the data were processed

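The measurements were 46 Affymetrix MTA 1.0 arrays of mouse nucleus accumbens RNA, 1 per mouse, in 8 groups by strain, drug and phase. The deposited values are log2 signals per transcript cluster, already scaled by the authors. How probes were summarised, and on which genome build, is not given in the sources used here. Positions of 8475 genes were set against GRCm38.p6, and 99.4% overlapped their namesake. The authors' deposited comparison table also holds S-scores of nicotine mice (a score, not used as a result) and the count of probes per cluster, per the file headers.

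Of 48088 features, 1 per gene symbol was kept (highest mean), and 9599 of 16312 genes passed the filter, above the 50th percentile of non-control features on at least 5 arrays. Limma 3.58.1 (R 4.3.3) fitted 1 coefficient per group over all 46 arrays, with two-sided moderated tests and Benjamini-Hochberg adjustment within each contrast at 0.05. The fit of the removal contrast was tested on simulated data. Named genes were the 15 smallest p in each direction, up to 4 per list, and genes singled out after their values were seen (the chromosome 14 cluster, non-overlapping groups, abundant markers). The members and lists were chosen with earlier results of these data known. Labels name the mice as separate animals. The number of arrays limits the precision.

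The alternatives covered scaling, filters, spread, marker covariates, a replicate block and leaving out each of the 12 mice.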

Additional observations from a re-analysis of the deposited data

Results flagged for a closer look

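In groups of 6, a mouse was singled out where its gap to the nearest other mouse exceeded 0.625 of the group's range. This held for 21 of 354 groups of values, and chance gives about 5%. Pump-removed mice held 7 of them and pump-in-place mice 14. No removal difference between strains or drugs passed the test.

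Among pump-removed mice, the log2 values that stood apart were Gsta4 in mouse 2 (9.93), Hist1h1c in mouse 1 (7.41), Ndufab1 in mouse 4 (8.26), Ndufv1 in mouse 1 (10.52), Olig2 in mouse 6 (9.61) and Rpl41 in mouse 6 (15.80). The level of the ribosomal protein list in mouse 6 was 0.32.

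Among pump-in-place mice, mouse 3 stood apart for Gpx4 (8.30), Psmb1 (12.67), Psmb3 (8.75), Psmb5 (10.21), Rpl41 (14.39), Sik3 (12.34) and the ribosomal protein list (-0.57). Mouse 1 stood apart for Ctla2a (8.46), Ednrb (10.23), Serpina3n (9.70) and Sult1a1 (9.52). Mouse 4 stood apart for Cnp (10.79) and Pts (9.55), and mouse 6 for the endothelial list (-0.14).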

How the results depend on the processing

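None of the 73 counts of calls computed over the alternatives differed from 0, for removal, its strain difference or its drug difference. The share of higher genes among those at an unadjusted p under 0.05 was 25.9% as reported, 37.4% with median-centred arrays, 38.2% with quantile normalization (149 higher and 241 lower), 38% with cyclic loess (152 and 248), 44.7% with no filter (259 and 321) and 14.5% with the 75th percentile filter (30 and 177). Leaving out 1 mouse at a time gave 258 to 515 such genes. Mouse numbers did not pair the groups: same-numbered mice correlated between -0.23 and 0.10, and the replicate block gave 0 calls and 96 higher and 281 lower genes. The red cell list's median was -0.07 with no filter, which admits more of its genes. The 144 named genes were chosen by small p in these same mice, which favours a stable sign, and 139 of them reversed under no alternative. The exceptions were mt-Rnr2 (-0.016 with cyclic loess, -0.00158 with the oligodendrocyte covariate and -0.00271 to 0.0275 leaving out 1 mouse), ND5 (-0.0235 with cyclic loess and -0.00124 with that covariate), and Rpl41 (-0.0603 to 0.199), Rpl7a (-0.0107 to 0.119) and Psmb5 (-0.0218 to 0.153) leaving out 1 mouse. Among the fits without 1 mouse, the lowest value came without pump-in-place mouse 6 for mt-Rnr2 and without pump-in-place mouse 3 for Rpl41, Rpl7a and Psmb5. The cause was not tested.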
